A study of Mus musculus with 12 samples.

Results

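The 7 genes described here encode the cyclin-dependent kinase (CDK) inhibitors, and they were taken by name, 7 of the 18193 genes that the array measures with a probe set of their own. Each gene was read from its single-gene probe set of highest mean log2 signal over all 12 arrays, and the members have 9 such probe sets in all, 2 each for Cdkn1a and Cdkn1b and 1 for each of the others. RNA of mouse bone marrow haematopoietic stem cells (HSCs), the rare cells from which every blood lineage descends, was measured on 12 Affymetrix arrays, 3 biological replicates in each of 4 groups. The groups are Nras GFPhigh, Nras GFP-, wild-type GFPhigh and wild-type GFP-. Nras mice are NrasG12D/+, heterozygous for an oncogenic allele of the small GTPase Nras, and wild-type mice lack that allele. All mice of the 4 groups drank doxycycline for 6 weeks and were then followed without it for 12 weeks. In such a design GFP is diluted at each division, so that the labels call the GFPhigh cells quiescent and the GFP- cells cycling. How the Nras allele was switched on, what drives the GFP, the age of the mice and whether a sample pools several mice are not given in the sources used here. Labels call the replicates biological, so p values below measure the spread between these samples.

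CDK inhibitors brake the cell cycle. The Cip/Kip proteins, encoded by Cdkn1a (p21), Cdkn1b (p27) and Cdkn1c (p57), bind complexes of several cyclins and CDKs and restrain CDK2 in particular. The INK4 proteins, encoded by Cdkn2a (p16), Cdkn2b (p15), Cdkn2c (p18) and Cdkn2d (p19), bind CDK4 and CDK6 and keep D-type cyclins off them, so that the retinoblastoma protein stays unphosphorylated and E2F factors stay silent. Cdkn2a also encodes the Arf protein, which stabilises p53 from another reading frame. In mouse HSCs p57 is the member best known for holding cells in quiescence, together with p27. Much of the control of p21, p27 and p57 acts on protein stability, which an RNA array does not measure.

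Markers of the labelled cell type were read first. Of 8 HSC markers 6 are on the array under a single gene (Kit, Procr, Mecom, Hlf, Slamf1 and Meis1), and each of the 6 was above the array median on all 12 arrays. The granulocyte genes S100a8 and S100a9, the monocyte gene Lyz2 and the B cell gene Cd79b were too, so this reading cannot exclude other cells. Array medians ran from 44.0 to 129.6 MAS5 units, the linear signal unit of the array software. Nras GFPhigh replicates 1 and 2, Nras GFP- replicate 1 and wild-type GFPhigh replicate 2 had array weights of 0.308 to 0.522, a measure of how far an array follows its group, against 0.903 to 2.46 in the other 8. They are called the 4 uneven arrays, and values without them are given where they differ. Leaving them out leaves a single Nras GFPhigh array, which is then assumed to vary like the other groups. Replicate 3 of every group stood apart in sex-linked transcripts, with Xist at 91.8 to 205.1 units against 5773.4 to 11480.7 in replicates 1 and 2. Eif2s3y read 3876.6 to 4544.9 units in replicate 3 against 2.3 to 674.7 in replicates 1 and 2. Values from replicates 1 and 2 alone are therefore also given where they differ. Of the 7 members 5 passed the filter on low signal, which asks for a signal above the array median on at least 3 arrays, and Cdkn2a and Cdkn2b did not. Log2 fold changes are from limma with their standard error (SE), and adjusted p values are by Benjamini-Hochberg over all 12083 genes tested.

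**Figure D1:**
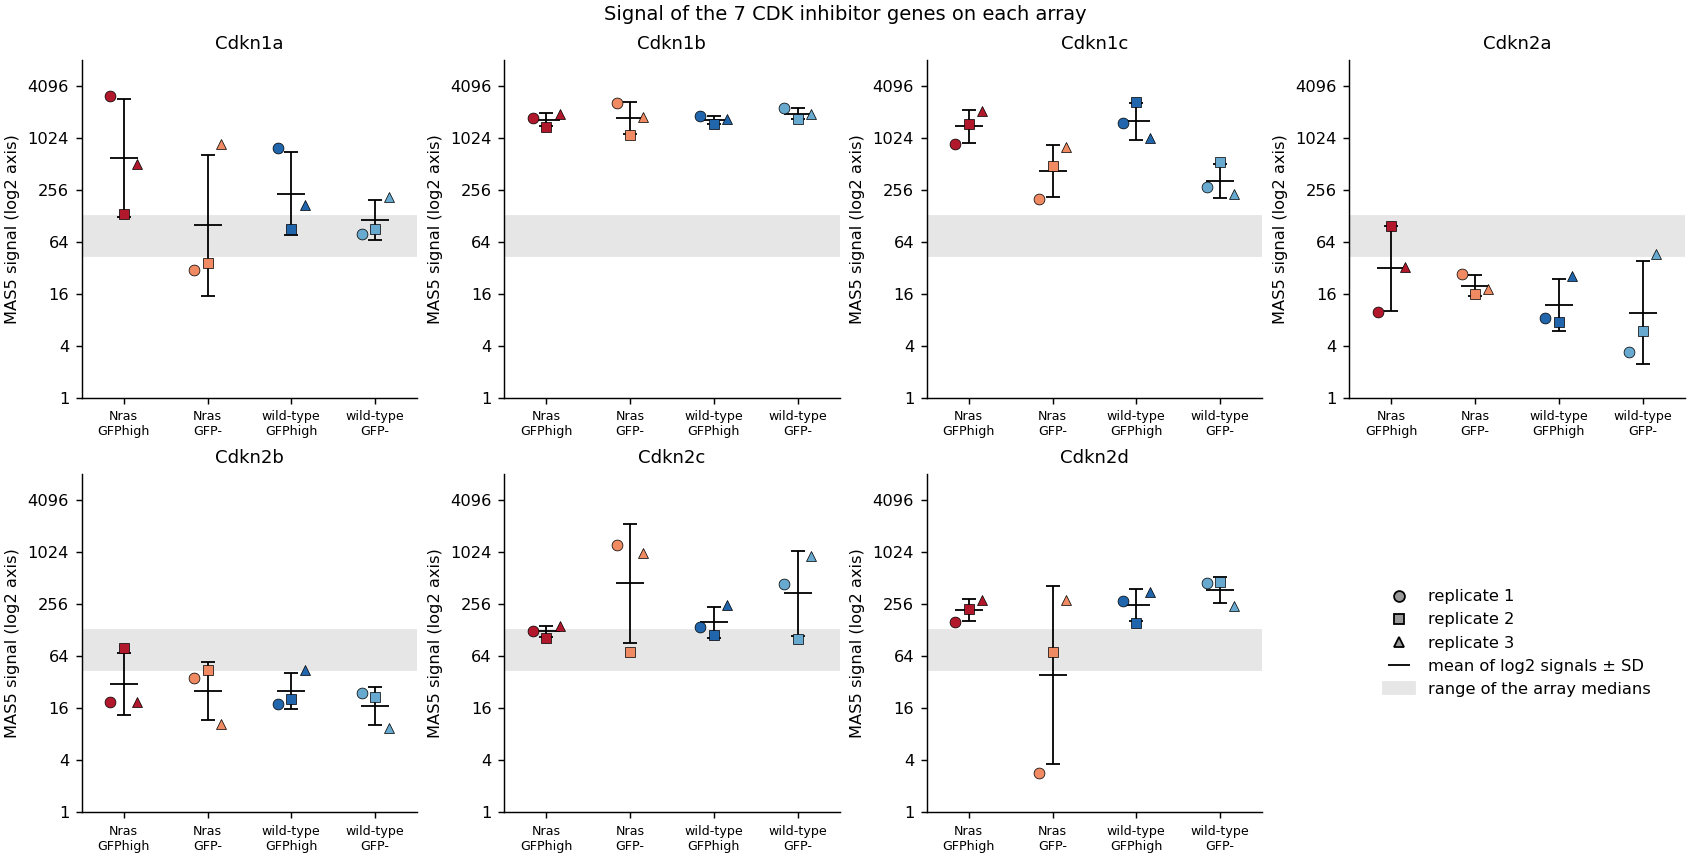
MAS5 signal of each CDK inhibitor gene (y axis, log2 scale) on each array, by group (x axis), with 1 point per array, the point's shape giving the replicate; horizontal ticks and bars are the mean of the log2 signals ± SD over 3 arrays, and the grey band runs over the 12 array medians, 44.0 to 129.6. Cdkn1c is the only gene of the 7 shown here whose 6 GFPhigh points (876.6 and above) all lie over its 6 GFP- points (799.4 and below).

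The first question was which inhibitors differ between label-retaining and label-free HSCs when Nras and wild-type mice are averaged, with 6 arrays in each population. Cdkn1c, the p57 gene, was the member that set the populations apart. In Nras GFPhigh cells it read 876.6, 1502.5 and 2102.7 units in replicates 1, 2 and 3, against 202.7, 484.3 and 799.4 in Nras GFP- cells. Wild-type GFPhigh cells read 1520.5, 2693.8 and 1012.4, against 278.4, 538.0 and 230.5 in wild-type GFP- cells. In MAS5 units every GFPhigh array was therefore above every GFP- array, across genotypes as well as within them. Of all genes tested, 0.232% had their 6 GFPhigh arrays above their 6 GFP- arrays in these units. Across genotypes the order depends on the scale. Divided by its array median of 113.9, wild-type GFPhigh replicate 3 fell below Nras GFP- replicate 2, whose array median was 51.9. By rank of signal within the array these 2 arrays kept their order, at the 82.6th and 74th percentile.

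Averaged over genotypes, the log2 fold change of Cdkn1c was 2.01 ± 0.49 (SE), a 4.02-fold higher level with a 95% interval of 0.95 to 3.07 on the log2 scale. Its unadjusted p of 0.00127 was the 47th smallest of 12083. The adjusted p from limma was 0.301, and over the alternatives it ran from 0.187 to 0.684. Limma called 0 genes in this comparison at an adjusted p under 0.05 (0% of those tested), and 8.87% had an unadjusted p under 0.05, as did 1 of the 5 tested members. The value of Cdkn1c was 1.84 without the 4 uneven arrays, 2.13 in replicates 1 and 2 alone, and 1.74 to 2.23 with any 1 array left out.

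The remaining members that passed the filter gave no such separation. Cdkn1a, the p21 gene and a classical target of p53, had a log2 fold change of 1.81 ± 1.0 (SE, adjusted p = 0.629 by limma). Cdkn2d, which encodes the INK4 protein p19, had 0.95 ± 0.92 (adjusted p = 0.792 by limma), and 0.01 without Nras GFP- replicate 1. Cdkn1b, the p27 gene, had -0.14 ± 0.29 (adjusted p = 0.91 by limma), with a 95% interval of -0.76 to 0.48. Cdkn2c, which encodes p18, had -1.49 ± 0.78 (adjusted p = 0.611 by limma). Of the 5 tested members 3 were higher and 2 lower in GFPhigh cells, with a median of 0.95, beside 51.0% higher and a median of 0.018 over all genes tested.

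**Figure D2:**
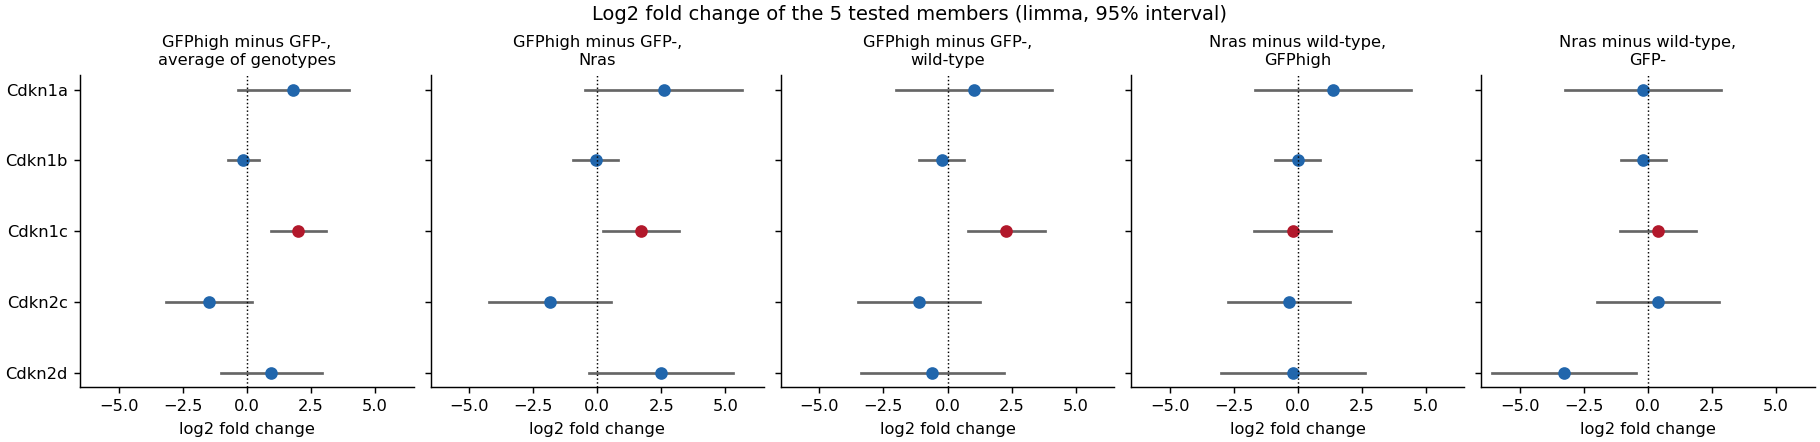
Log2 fold change of the 5 tested members (rows) in each comparison (panels), from limma over all 12 arrays, with points for the estimate and lines for its 95% interval. The interval of Cdkn1c lies above 0 in the 3 panels of GFPhigh minus GFP- and spans 0 in both panels of Nras minus wild-type.

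Taken within each genotype, the Cdkn1c difference was of similar size. In Nras mice GFPhigh cells averaged 1494 ± 613 units and GFP- cells 495.5 ± 298.5 (SD, n = 3 each), a log2 fold change of 1.71 ± 0.69 (SE, adjusted p = 0.367 by limma). In wild-type mice GFPhigh cells averaged 1742 ± 862 and GFP- cells 349 ± 165.5 (SD, n = 3 each), a log2 fold change of 2.30 ± 0.69 (SE, adjusted p = 0.9997 by limma). The unadjusted p was 0.028 in Nras cells, where 12.2% of genes were under 0.05, and 0.00552 in wild-type cells, where 2.2% were. Groups that did not overlap, with GFPhigh higher, were found for 6.7% of genes in Nras cells and 5.3% in wild-type cells, and for 0.571% in both genotypes at once. The difference between the genotypes, tested as an interaction, was -0.59 ± 0.98 (95% interval -2.71 to 1.53, adjusted p = 0.963 by limma), an interval that leaves room for a sizeable difference in either direction. Cdkn1c was highest in wild-type GFPhigh cells, then in Nras GFPhigh, Nras GFP- and wild-type GFP- cells, and in that order the first pair of neighbours and the last pair did not differ beyond their spread.

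**Figure D3:**
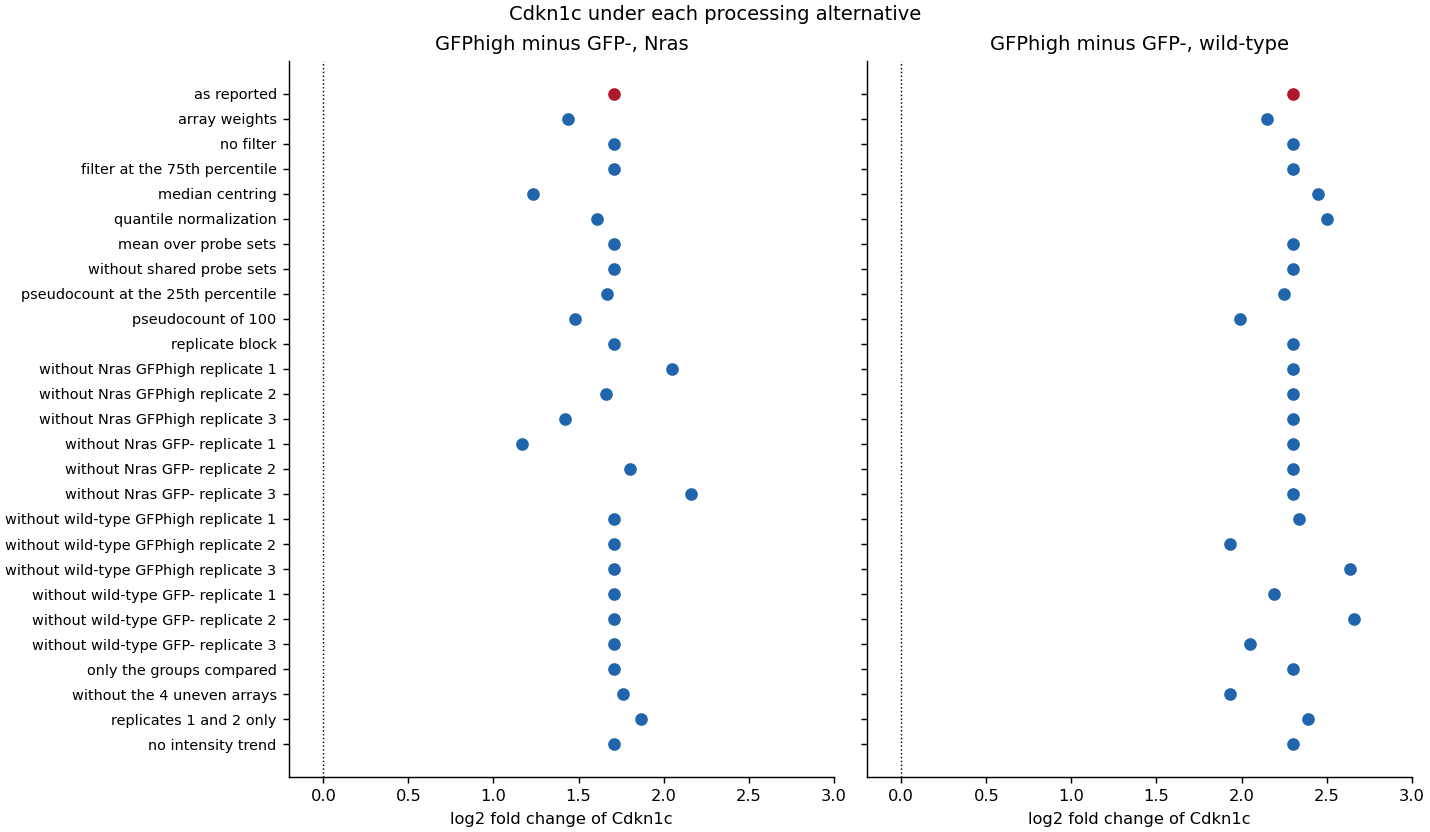
Log2 fold change of Cdkn1c (x axis) between GFPhigh and GFP- cells under each processing alternative (rows), in Nras mice (left) and wild-type mice (right), 1 point per alternative and the reported value in red. All points lie above 0, from 1.17 to 2.16 in Nras mice and from 1.93 to 2.66 in wild-type mice, where leaving out an array of the other genotype leaves the value as it is.

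Markers of other cells were read beside Cdkn1c, because p57 is also made outside the blood lineages. Of 7 endothelial and stromal markers 5 were tested, and all 5 were higher in GFPhigh cells averaged over genotypes, with a median of 0.43 and 0 called. In Nras cells 4 of the 5 were higher (median 1.65) and in wild-type cells 2 of the 5 (median -0.69). Cxcl12, a chemokine of niche stroma, led them in Nras cells, at 5.93 ± 1.07 (SE, adjusted p = 0.105 by limma), and had -0.69 ± 1.07 in wild-type cells. Their summed signal was 2098.5 to 5830.7 units in Nras GFPhigh against 874.2 to 4366.8 in Nras GFP- cells, and 1726.2 to 2869.3 in wild-type GFPhigh against 1895 to 2533.9 in wild-type GFP- cells. Pecam1 and Vwf, both also made by blood cells, were above the array median on all 12 arrays, Kdr on 8, Cxcl12 and Col1a1 on 5 each, the endothelial cadherin Cdh5 on 1 and the stromal receptor Lepr on 0. Of the 8 granulocyte markers 8 were higher in GFPhigh cells in Nras mice (median 3.99) and 1 in wild-type mice (median -1.47), with 8 higher on average and 0 called. Their sum ran from 5725.5 to 56852.3 in Nras GFPhigh against 4039.1 to 4625 in Nras GFP- cells, and from 462.3 to 11653.7 in wild-type GFPhigh against 1991.9 to 12671 in wild-type GFP- cells. Of the 4 tested megakaryocyte markers 3 were lower in Nras cells, 4 in wild-type cells and 4 on average, and the sum of all 5 ran from 531.5 to 817.6 in Nras GFPhigh against 1451.3 to 4331.7 in Nras GFP- cells, and from 289.8 to 1280.6 in wild-type GFPhigh against 683.1 to 1671.4 in wild-type GFP- cells. All 3 tested B cell markers were higher, in Nras cells (median 0.73), in wild-type cells (median 1.59) and on average (median 1.38). The sum of the 5 on the array ran from 985.5 to 3387.1 in Nras GFPhigh against 205.3 to 1061.4 in Nras GFP- cells. In wild-type cells it ran from 381.4 to 962 in GFPhigh against 242.8 to 635.2 in GFP-. On average 2 of 3 monocyte, 1 of 1 T cell, 2 of 3 erythroid and 1 of 3 mast cell markers were higher. In Nras cells these counts were 3, 1, 2 and 1 (medians 1.08, 0.76, 1.88 and -0.02). In wild-type cells they were 2, 1, 1 and 1 (medians 0.01, 0.18, -0.89 and -0.71). Of the 6 HSC markers 4 were higher in Nras cells (median 0.33), in wild-type cells (median 0.24) and on average (median 0.21), with 0 called. Procr led them on average, at 0.96 ± 0.25 (SE, adjusted p = 0.341 by limma). The HSC sum ran from 30226.5 to 35378.1 in Nras GFPhigh against 19775.3 to 29565.5 in Nras GFP- cells. In wild-type cells it ran from 24752.5 to 30911.3 in GFPhigh against 21044.6 to 25731.2 in GFP-. The part of all these markers in the Cdkn1c result was not tested. In sorted bulk RNA, fewer cells that express a gene and less of its RNA per cell cannot be told apart.

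Cdkn1b, whose product p27 acts beside p57 in HSCs, was the steadiest member. Its probe set of higher signal, 1434045_at, read 1725.1, 1372.4 and 1940.5 units in Nras GFPhigh cells, against 2598.3, 1109.5 and 1803.2 in Nras GFP- cells. Wild-type GFPhigh cells read 1833.5, 1496.0 and 1693.9, against 2278.0, 1701.0 and 1932.4 in wild-type GFP- cells. All 4 groups overlap, and over the 12 arrays the highest value is 2.34 times the lowest. The residual SD of its log2 signal within groups was 0.36, at the 7.9th percentile of genes tested, beside a median of 1.04 over all genes.

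The other Cdkn1b probe set, 1419497_at, gave a different picture for 1 group. It read 478.5, 730.0 and 817.1 units in Nras GFPhigh cells, against 1075.3, 1592.3 and 1042.8 in Nras GFP- cells. In wild-type GFPhigh cells it read 467.2, 738.2 and 732.3, against 576.4, 356.4 and 531.0 in wild-type GFP- cells. The 3 Nras GFP- arrays thus stood above the other 9. Between Nras GFP- and wild-type GFP- cells its log2 fold change was 1.34 ± 0.56 (SE), against -0.18 ± 0.40 for the first probe set in the same fit of 23128 probe sets. The unadjusted p of 1419497_at was 0.0327 and its adjusted p 0.98 by limma, in a fit that called 0% of probe sets at an adjusted p under 0.05. Of all probe sets 0.934% were higher in Nras GFP- cells at an unadjusted p under 0.05, and 3.83% had Nras GFP- arrays that were all above the wild-type GFP- arrays. Between Nras GFPhigh and Nras GFP- cells the same probe set had -0.88 ± 0.56 (SE, adjusted p = 0.593 by limma), and 6.1% of probe sets had groups that did not overlap in that direction.

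**Figure D4:**
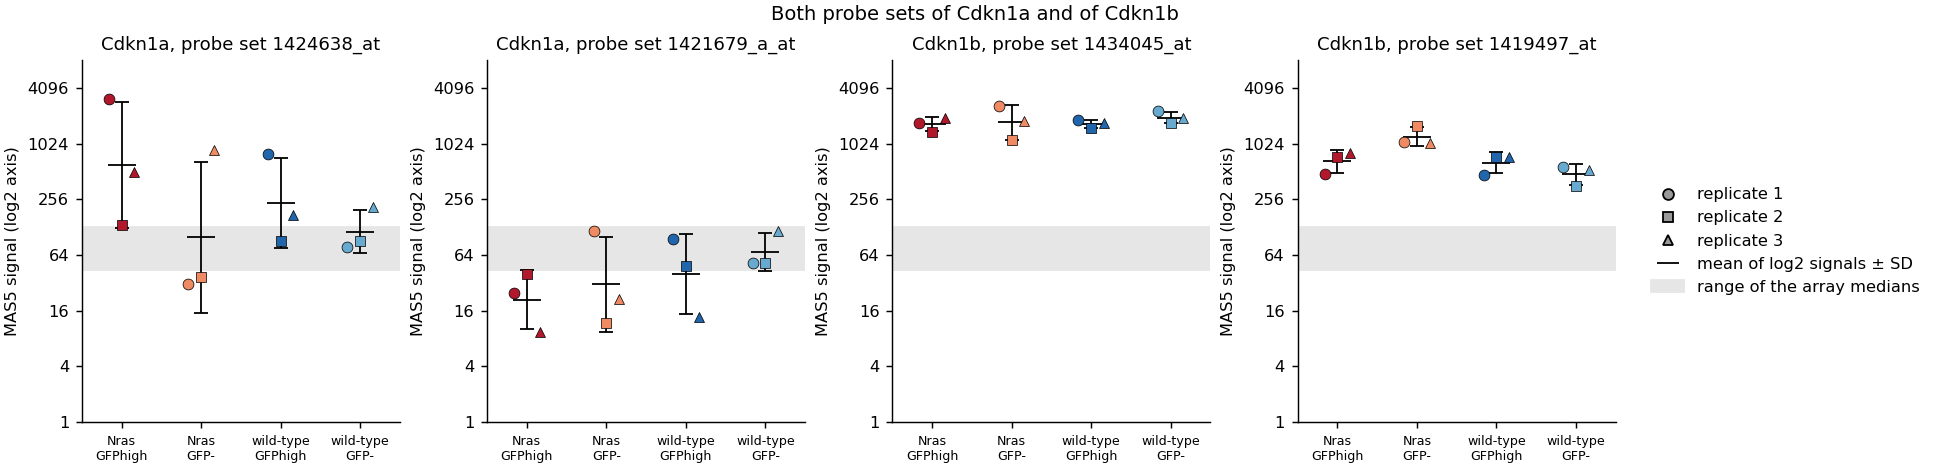
MAS5 signal (y axis, log2 scale) of both probe sets of Cdkn1a (the 2 left panels) and of Cdkn1b (the 2 right panels) on each array, by group, with ticks and bars for the mean of the log2 signals ± SD over 3 arrays and a grey band over the array medians. For Cdkn1b the Nras GFP- arrays lie above the other 9 in probe set 1419497_at, at 1042.8 and more against 817.1 and less, and overlap them in 1434045_at.

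Cdkn1a, the p21 gene, is shown with the window around its upstream start, since that window holds a match to the sequence bound by p53, its best known activator. The RefSeq promoter table, build GRCm38.p6, has 9 windows for 6 of the 7 members, each of 250 bases before and 50 after a transcription start, and none for Cdkn1c. The upstream Cdkn1a window is chr17:29090729-29091028 on the plus strand. Capitals mark the match to a full p53 response element, searched as a pair of adjoining p53 half-sites with at most 1 mismatch outside the core bases.
Cdkn1a upstream start: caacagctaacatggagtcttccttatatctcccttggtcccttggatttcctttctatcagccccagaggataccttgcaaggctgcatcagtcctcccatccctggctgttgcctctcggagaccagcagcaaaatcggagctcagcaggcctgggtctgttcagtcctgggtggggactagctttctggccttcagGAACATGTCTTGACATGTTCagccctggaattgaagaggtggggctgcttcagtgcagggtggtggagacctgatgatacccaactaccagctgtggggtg
The match runs from 51 to 32 bases before that start. Such a match was held by 22 of the 32841 promoter windows of the RefSeq table (0.067%), and by none of the other 8 windows of the members. A match is a description of the letters and says nothing of p53 binding in these cells.

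Cdkn1a had the widest spread within groups of the 5 tested members. It read 3111.9, 135.1 and 509.7 units in Nras GFPhigh cells, against 30.7, 36.8 and 867.9 in Nras GFP- cells. Wild-type GFPhigh cells read 795.3, 90.8 and 172.7, against 78.2, 89.5 and 210.0 in wild-type GFP- cells. Replicate 1 was the high array of both GFPhigh groups and replicate 3 that of both GFP- groups, and GFPhigh and GFP- arrays overlap in each genotype. Its residual SD of 1.98 on the log2 scale, against 1.77 for Cdkn2d, lies at the 87.2th percentile of genes tested, and its highest value is 101 times its lowest, against 167 times for Cdkn2d. The log2 fold change between GFPhigh and GFP- was 2.59 ± 1.41 (SE) in Nras cells and 1.03 ± 1.41 in wild-type cells, with adjusted p values of 0.486 and 0.9997 by limma. In replicates 1 and 2 alone these were 4.27 and 1.68, and with array weights 1.33 in each genotype. With 1 array left out they ran from 1.4 to 4.15 in Nras cells and from 0.14 to 1.7 in wild-type cells. The reading of 3111.9 units is from Nras GFPhigh replicate 1, one of the 4 uneven arrays. The other probe set, 1421679_a_at, was above the array median on 3 of 12 arrays and ran from 9.4 to 117.3 units. Its log2 fold change averaged over genotypes was -0.67 ± 0.84 (SE, adjusted p = 0.873 by limma), opposite in sign to that of 1424638_at.

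Among the INK4 genes Cdkn2c, the p18 gene, had its 3 highest arrays in GFP- cells, and its 2 lowest there too. It read 126.1, 104.3 and 142.4 units in Nras GFPhigh cells, against 1231.7, 71.8 and 1009.9 in Nras GFP- cells. Wild-type GFPhigh cells read 138.7, 113.1 and 250.3, against 435.5, 100 and 931.4 in wild-type GFP- cells. In both genotypes GFP- replicates 1 and 3 were above all GFPhigh arrays of that genotype while GFP- replicate 2 was below them, so the groups overlap through 1 array each. The log2 fold change was -1.86 ± 1.10 (SE, adjusted p = 0.528 by limma) in Nras cells and -1.12 ± 1.10 (adjusted p = 0.9997 by limma) in wild-type cells. Averaged over genotypes it was -0.90 without the 4 uneven arrays, against -1.49 with all of them. The 3 arrays of highest Cdkn2c, Nras GFP- replicates 1 and 3 and wild-type GFP- replicate 3, read 202.7, 799.4 and 230.5 units for Cdkn1c.

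Cdkn2d, which encodes the INK4 protein p19, differed most between genotypes, in GFP- cells. It read 160.8, 222.5 and 288.2 units in Nras GFPhigh cells, against 2.8, 71.3 and 287.5 in Nras GFP- cells. Wild-type GFPhigh cells read 276.2, 154.0 and 353.8, against 447.0, 466.7 and 246.3 in wild-type GFP- cells. Nras GFP- replicate 1 is the lowest array and one of the 4 uneven ones, while Nras GFP- replicate 3 lies within the wild-type range. Between Nras GFP- and wild-type GFP- cells the log2 fold change was -3.27 ± 1.30 (SE), with an unadjusted p of 0.0256 and an adjusted p of 0.983 by limma. Limma called 0% of genes in that comparison, 4.39% had an unadjusted p under 0.05, and Cdkn2d was the 1 tested member among them. The value was -1.38 without the 4 uneven arrays and -5.01 in replicates 1 and 2 alone. Within Nras cells GFPhigh against GFP- gave 2.50 ± 1.30 (adjusted p = 0.462 by limma), which ran from 0.60 without Nras GFP- replicate 1 to 3.95 without Nras GFP- replicate 3. Within wild-type cells it was -0.59 ± 1.30 (adjusted p = 0.9997 by limma). The interaction was 3.09 ± 1.83 (95% interval -0.88 to 7.05, adjusted p = 0.956 by limma), and 1.26 without the 4 uneven arrays. In the interaction limma called 0% of genes, 4.68% had an unadjusted p under 0.05, and 0 of the 5 tested members did.

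Cdkn2a and Cdkn2b, neighbouring genes that are best known for their activity in senescent and aged cells, were above the array median on 0 of 12 arrays. Cdkn2a read 9.9, 97.1 and 33.0 units in Nras GFPhigh cells, against 27.0, 16 and 18.4 in Nras GFP- cells. It read 8.5, 7.5 and 26.1 in wild-type GFPhigh cells, against 3.4, 5.9 and 45.9 in wild-type GFP- cells. The 4 groups overlap, and the single probe set cannot be assigned here to p16 or Arf. Cdkn2b read 18.8, 78.8 and 18.9 units in Nras GFPhigh cells, against 35.7, 43.9 and 10.4 in Nras GFP- cells. It read 18, 20.4 and 43.8 in wild-type GFPhigh cells, against 23.6, 21.4 and 9.5 in wild-type GFP- cells. Neither gene was tested, and at these signals no level could be told from the low end of the array.

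The next question was whether the Nras allele shifts the inhibitors within a population. In GFPhigh cells, where limma called 0% of genes and 8.29% had an unadjusted p under 0.05, 0 of the 5 tested members did. Cdkn1c had a log2 fold change between Nras GFPhigh and wild-type GFPhigh of -0.19 ± 0.69 (SE, 95% interval -1.69 to 1.30, adjusted p = 0.963 by limma). Cdkn1b had -0.01 ± 0.41 (95% interval -0.88 to 0.87), the narrowest interval of the 5. Cdkn1a had 1.37 ± 1.41, with adjusted p values from 0.835 to 0.997 over the 5 members by limma. In GFP- cells Cdkn1c had 0.39 ± 0.69 (95% interval -1.1 to 1.89, adjusted p = 0.983 by limma) and Cdkn2c 0.38 ± 1.10. These comparisons share arrays with those above and are not independent of them. The intervals of Cdkn1a, Cdkn1c, Cdkn2c and Cdkn2d all contain differences of 1 log2 unit or more in either direction in the GFPhigh comparison.

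Genes that act on, with or beside the inhibitors were read in the same fit of GFPhigh against GFP- cells, averaged over genotypes, and 0 of any list was called. Of the 11 tested CDKs and cyclins 8 were lower, and the list had a median of -1.04 on the log2 scale, beside 0.018 over all genes. Cdk6, the INK4-bound kinase whose high level lets HSCs leave quiescence, averaged 1439 ± 782 units in Nras GFPhigh against 3910 ± 1010 in Nras GFP- cells (SD, n = 3 each). It averaged 955.3 ± 504.0 in wild-type GFPhigh against 2534 ± 369.9 in wild-type GFP- cells (SD, n = 3 each). The log2 fold change of Cdk6 was -1.57 ± 0.38 (SE, adjusted p = 0.301 by limma). Cdk1, the kinase of mitotic entry, had -1.63 ± 0.53 and Ccnb2, a mitotic cyclin, -2.66 ± 0.97, whereas Ccnd2, a D-type cyclin, had 0.36 ± 0.14. Of 13 RB pocket proteins and E2F factors 11 were lower, with a median of -0.47. E2f8, an E2F repressor made in S phase, had -2.44 ± 0.81, and Tfdp1, the partner of E2F factors, -0.75 ± 0.29. Rb1, the retinoblastoma gene, had -1.11 ± 0.50, and E2f1 -1.13 ± 0.57. By genotype Rb1 had -0.10 ± 0.70 in Nras and -2.13 ± 0.70 in wild-type cells, and E2f1 -1.66 ± 0.81 and -0.60 ± 0.81. Their interactions had adjusted p values of 0.9562 and 0.9596 by limma. Of 11 proliferation markers 10 were lower, with a median of -1.32, Mcm5, a subunit of the replicative helicase, at -1.05 ± 0.25, and Tk1, Rrm2 and Top2a at -1.84, -1.32 and -1.27. Without the 4 uneven arrays these lists had 8 of 11, 9 of 13 and 11 of 11 genes lower.

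**Figure D5:**
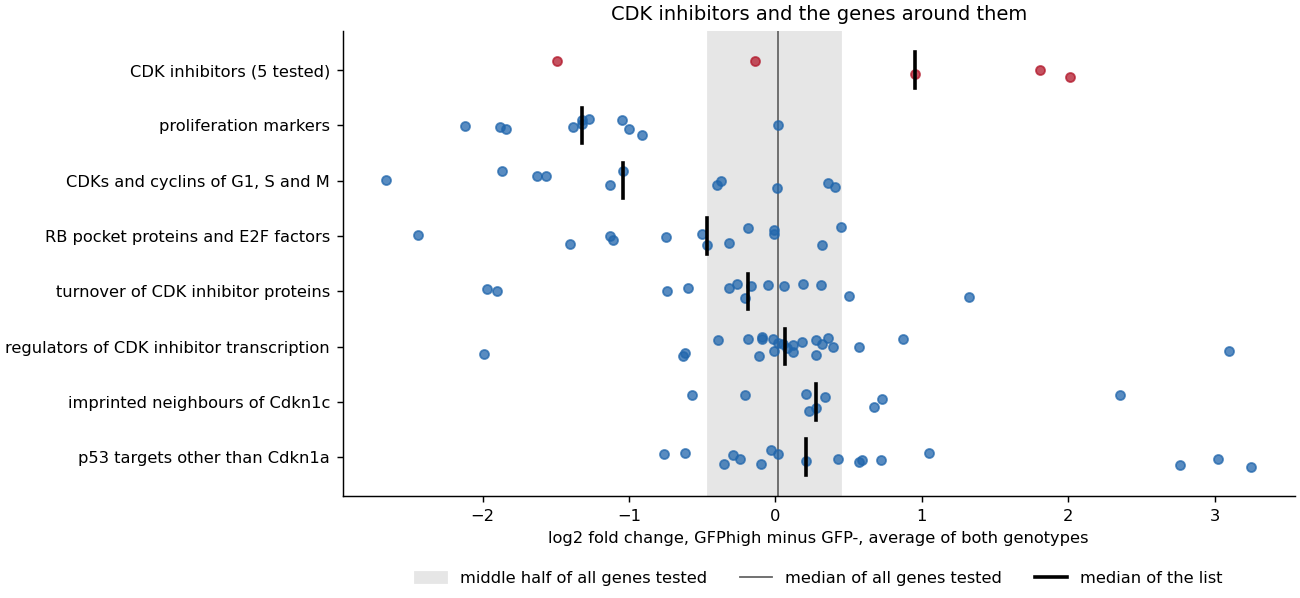
Log2 fold change between GFPhigh and GFP- cells averaged over genotypes (x axis) for the 5 tested CDK inhibitors (red) and the tested genes of 7 lists (blue), 1 point per gene, with a black tick for each list's median, a grey line for the median of all genes (0.018) and a grey band for the range between their quartiles. The proliferation markers have the lowest median, -1.32, and the CDK inhibitors are spread from -1.49 to 2.01.

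Genes that turn over the inhibitor proteins were mixed, 9 of 14 being lower with a median of -0.19. Cks2, of the Cks family that helps CDKs choose substrates, had -1.97 ± 0.57 (SE) and Dtl, the adaptor that sends p21 to degradation in S phase, -1.90 ± 0.60. Ddb1, which joins Dtl to its ligase, had -0.74 ± 0.34, and Fbxl12, an F-box protein, 1.32 ± 0.64. Skp2, the F-box protein that marks p27 for degradation, had -0.60 ± 0.49. Of 24 regulators of inhibitor transcription 14 were higher, with a median of 0.06. With median centring of the arrays 9 were higher (median -0.10), and without the 4 uneven arrays 16 were (median 0.25). Gfi1, a repressor that restrains HSC proliferation, averaged 4118 ± 1196 units in Nras GFPhigh against 401.1 ± 319.4 in Nras GFP- cells (SD, n = 3 each). It averaged 4159 ± 403.4 in wild-type GFPhigh against 1079 ± 990.7 in wild-type GFP- cells (SD, n = 3 each), a log2 fold change over both genotypes of 3.10 ± 0.57 (SE, adjusted p = 0.161 by limma). Ezh2, the Polycomb methyltransferase that silences the Cdkn2a locus in other cells, had -1.99 ± 0.42 (SE, adjusted p = 0.217 by limma). Myc, which represses several inhibitors, had -0.62 ± 0.21 and Mycn 0.28 ± 0.15.

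Of the genes next to Cdkn1c in its imprinted region 9 were tested and 7 were higher, with a median of 0.28. Igf2, a growth factor gene expressed from the paternal copy, had 2.35 ± 1.14 (SE) at 38 to 402.6 units in Nras GFPhigh against 2.2 to 322.1 in Nras GFP- cells. It read 25.1 to 329.8 units in wild-type GFPhigh against 20 to 33.5 in wild-type GFP- cells. Cd81, a tetraspanin, had 0.34 ± 0.14, Phlda2 0.73 ± 0.83 and Tspan32 -0.57 ± 0.54, and Kcnq1ot1, the antisense RNA that silences Cdkn1c on the paternal chromosome, 0.21 ± 0.51. Without the 4 uneven arrays 5 of the 9 were higher. Of 17 tested p53 targets other than Cdkn1a 10 were higher, with a median of 0.21, and 14 were higher without the 4 uneven arrays. Plk2, a polo-like kinase, averaged 1597 ± 605.1 units in Nras GFPhigh against 200.7 ± 153.7 in Nras GFP- cells (SD, n = 3 each). It averaged 1188 ± 459.3 in wild-type GFPhigh against 172 ± 92.87 in wild-type GFP- cells (SD, n = 3 each), a log2 fold change of 3.25 ± 0.67 (SE, adjusted p = 0.217 by limma). Phlda3, an inhibitor of Akt, had 2.76 ± 0.91, and Perp, a membrane protein of apoptosis, 3.02 ± 1.05. Signals were low for Phlda3 in GFP- cells of both genotypes and for Perp in Nras GFP- cells. Phlda3 read 3.2 to 66.5 units in Nras GFP- and 6.9 to 46.4 in wild-type GFP- cells. In GFPhigh cells it read 32.2 to 221.6 in Nras and 44.1 to 103.9 in wild-type mice. Perp read 1.7 to 9.5 units in Nras GFP- and 77.8 to 189.3 in wild-type GFP- cells. In GFPhigh cells Perp read 7 to 864.2 in Nras mice, where the groups overlap, and 350.9 to 1666.1 in wild-type mice. Ccng1, which encodes cyclin G1, had 0.59 ± 0.21, while Mdm2, the ligase that degrades p53, had -0.10 ± 0.27.

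The genes whose pattern over the 12 arrays was most like that of each tested member were named by Pearson's r of log2 signals, as a description. All points share the same arrays, so anything that moves a whole array enters r. For Cdkn1c they were Ndnf, a secreted glycoprotein (r = 0.954), Cd82, a tetraspanin (0.881), and Ppp1r2, a phosphatase regulator (0.856), with Ndnf running from 9.6 to 3329.2 units. For Cdkn1a they were Fam131a, Zscan29 and Gtdc1 (0.819 to 0.857), and for Cdkn1b Nipal3, Zfp654 and Plp2 (0.917 to 0.933). For Cdkn2c they were Nsg1, Lrrc20 and Huwe1 (0.879 to 0.893), and for Cdkn2d Ttc17, Kat14 and Tmem50b (0.959 to 0.964). Cdkn2d read 2.8 units on Nras GFP- replicate 1 and 71.3 or more on every other array. How far that low reading sets its r was not tested.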

How the data were processed

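Each deposited file gives the intensity of 1 array, unlogged, made by the authors with MAS5 per the submitters' processing notes, whose version is not given in the sources used here. Labels' protocols give Trizol extraction and biotinylated cRNA. The 3 values listed at 0 were set to 0.1 before log2 was taken, and no further normalization was applied. Of 45101 probe sets 64 controls, 932 with several symbols and 9160 with none were left out, and 34945 with 1 symbol gave 18193 genes. Of these, 12083 passed the filter. The number of arrays limits the precision.

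One limma model with a mean per group (8 residual degrees of freedom, an intensity trend in the prior variance) gave all comparisons, with two-sided p values and a threshold of 0.05 after adjustment. The members and lists were chosen with earlier results of these data known. Outside the cell type markers, named genes are the members and the 3 genes most like each tested member. They are also, per list, the 4 tested genes (or fewer) with the lowest unadjusted p in the averaged GFPhigh comparison. Skp2, Kcnq1ot1 and Mdm2 were added after their values were seen. Cell type markers are named for their signal against the array median. Cxcl12 and Procr, of lowest unadjusted p in their lists, are also given by fold change. Xist and Eif2s3y are named as sex-linked transcripts. Steps were tested on simulated data. Versions were R 4.3.3, limma 3.58.1, Python 3.11.15, pandas 2.3.3 and matplotlib 3.10.9.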

Additional observations from a re-analysis of the deposited data

How the results depend on the processing

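Of 776 member values recomputed under 27 settings, 0 passed the threshold, 725 kept their direction and 51 turned. Of the 725, 302 were identical to the reported value, most by construction, since filters, the intensity trend, the block, only the groups compared and leaving out an array of another group cannot move a fold change. Cdkn1c between GFPhigh and GFP- cells kept its sign in every setting that could move it, in both genotypes and on average. The settings were array weights, filters, median centring, quantile normalization, probe set means, leaving out shared probe sets, pseudocounts of 15.5 and 100, a replicate block, each of 12 arrays left out, only the groups compared, leaving out the 4 uneven arrays, only replicates 1 and 2, no intensity trend and, chosen after seeing the data, the other probe set of a gene. Cdkn2d was not tested with the filter at the 75th percentile. The cause of the turns was not tested.

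Averaged over genotypes, Cdkn1b turned to 0.15 without the 4 uneven arrays, and Cdkn1a to -0.67 with its other probe set. Within Nras cells Cdkn1b turned to 0.11 with array weights, 0.06 with quantile normalization and 0.46 without the uneven arrays, and Cdkn1a to -0.55 with its other probe set. Within wild-type cells Cdkn1b turned to 0.09 with probe set means and 0.40 with its other probe set, and Cdkn1a to -0.78 with its other probe set. For Nras against wild-type in GFPhigh cells Cdkn1b turned to 0.06 with quantile normalization, 0.03 with probe set means, 0.14 without the uneven arrays and 0.06 with its other probe set, Cdkn1c to 0.25 with array weights and 0.76 without the uneven arrays, and Cdkn1a to -0.92 with its other probe set. In GFP- cells Cdkn1a turned to 0.88 with array weights, 0.41 with median centring, 0.44 with quantile normalization, 0.24 with the pseudocount of 100 and 0.65 without the uneven arrays, Cdkn1b to 0.43 with median centring, 0.58 with probe set means and 1.34 with its other probe set, Cdkn2c to -0.35 without the uneven arrays and Cdkn1c to -0.30 in replicates 1 and 2. The interaction turned for Cdkn1a to 0.0 with array weights and -0.19 without the uneven arrays, and for Cdkn1b to -0.47 with median centring, -0.56 with probe set means and -1.29 with its other probe set.

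With 1 array left out at a time, Cdkn1b ran from -0.31 to 0.0 on average and -0.38 to 0.23 in Nras cells. For Nras against wild-type in GFPhigh cells Cdkn1b ran from -0.12 to 0.13, Cdkn1c from -0.53 to 0.18 and Cdkn2d from -0.52 to 0.08, and in GFP- cells Cdkn1a from -1.76 to 0.65, Cdkn1b from -0.47 to 0.15, Cdkn1c from -0.06 to 0.93 and Cdkn2c from -0.51 to 1.70. The interaction ran from -0.15 to 0.46 for Cdkn1b and -2.05 to 0.15 for Cdkn2c. Genes called over the whole array, 0 as reported in each comparison, were 8 with array weights, 1 with no filter, 2 with median centring, 4 with probe set means, 4 and 6 with the smaller and larger pseudocount, 3 without the uneven arrays and 1 with no trend in the averaged GFPhigh comparison. They were 4 with array weights in wild-type cells, and 3 with median centring and 7 without the uneven arrays in Nras cells, a setting with 1 Nras GFPhigh array whose spread is taken from the other groups. With 1 array left out they ran from 0 to 16 on average, 0 to 165 in Nras cells, 0 to 17 for Nras in GFPhigh and 0 to 8 for Nras in GFP- cells, the highest of each without Nras GFPhigh replicate 3 or, for the last, Nras GFP- replicate 3, and no member was among them.

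The replicate block cannot move a log2 fold change in this balanced design, only its error. With it Cdkn1c, at 2.01 on average, had an adjusted p of 0.324 by limma, and 2 of the 5 tested members had an unadjusted p under 0.05, Cdkn1c and Cdkn2c (0.0377). Of 18 same-numbered pairs of arrays 3, all of replicate 3, had deviations correlated above 0.1, as had 0 of 36 pairs of different number, and 9 of 12 arrays correlated best with their own number. That is a hint that arrays of the same number share something, which the labels do not state. It was a weak one, since only 3 of the 18 same-numbered pairs were above 0.1. The highest, 0.152 and 0.144, joined wild-type GFPhigh replicate 3 with Nras GFP- and Nras GFPhigh replicate 3, arrays of different genotype. Replicate 3 is also the set that stood apart in sex-linked transcripts. What these arrays share was not tested. Median centring moved the median of all genes by -0.168 in the averaged GFPhigh comparison, 0.151 within wild-type cells, -0.488 within Nras cells, where Cdkn1c was then 1.23, 0.607 for Nras in GFP- cells and -0.638 in the interaction. Quantile normalization moved the last 3 by -0.147, 0.143 and -0.176. Without the filter Cdkn2a had 0.48 ± 0.77 (SE) and Cdkn2b 0.42 ± 0.62 on average over genotypes, adjusted p = 0.898 and 0.885 by limma.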
